A study of Mus musculus with 8 samples.

Results

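The 33 genes described here make, take up, store and export cholesterol, or sense its level. They are the rows of the deposited gene table whose symbols are on a list of cholesterol genes, 33 of the 55114 genes in the table, and all 33 symbols were found. The list was chosen with the difference between KO and WT in these same mice already known, so the KO against WT values below describe these genes and are not a test of them. RNA came from intestinal crypts, the epithelial pockets that hold the intestinal stem cells, of 4 mice lacking Mex3a (Mex3a-/-, here KO) and of 4 of their littermates with the gene (genotype label Ctrl, here WT). All 8 mice were C57BL/6 and 8 weeks old, and no treatment is given in the labels. The KO is a germline deletion, so Mex3a, which encodes an RNA-binding protein, was missing from every cell of the animal and throughout development. The crypts were shaken off with EDTA from intestine whose segment is not stated, and were sequenced in bulk, so that a change in the number of cells of a type and a change in RNA per cell cannot be told apart.

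Cells build cholesterol from acetyl-CoA through mevalonate, isoprenoids, squalene and a series of sterols. The transcription factor SREBP2 (gene Srebf2) switches on most of these enzymes when sterols in the endoplasmic reticulum run low: SCAP carries it to the Golgi for cleavage, and the INSIG proteins hold it back when sterols are plentiful. LXR is a nuclear receptor that oxysterols activate when sterols are plentiful, and it switches on transporters that remove cholesterol. In the intestine the epithelium also takes cholesterol from the lumen through NPC1L1, returns sterols to the lumen through ABCG5 and ABCG8, and esterifies cholesterol with SOAT2 for export in lipoproteins. For the comparison of the opposing programmes, 22 members that SREBP2 is known to drive (the enzymes of synthesis other than Ggps1 and Lbr, with Srebf2, Insig1, Npc1l1 and Stard4) were set against 5 that LXR is known to drive (Abca1, Abcg5, Abcg8, Mylip and Srebf1). The other 6 members (Ggps1, Lbr, Scap, Insig2, Soat2 and Nr1h3) are in neither group. Counts were made per gene, so transcripts from different start sites, as in Srebf1, were pooled and need not share a driver.

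The promoters of 4 members are shown with the motifs found in them, taken from RefSeq's sequences on GRCm38.p6. None of the 4 matched the LXR element as searched below, with up to 2 mismatches. A site that departs further from the searched letters would be missed, so the lack of a match does not show that the element is absent. The stretches lie upstream of the listed start site and outside annotated exons, and are written 5′ to 3′ on the strand of the gene, with matched motifs in capitals. Hmgcs1, the entry enzyme of the mevalonate route, is shown (chr13:119690151-119690350, plus strand) because it was the 1 member of the 28 with a promoter in the table that held an exact sterol regulatory element, the SREBP site, searched as TCACNCCAC; its other capitals are CCAAT boxes on the reverse strand (ATTGG). Insig1 (chr5:28071212-28071362, plus strand) is shown for its E-box CACGTG, which SREBPs can also bind. Npc1l1 (chr11:6230246-6230445, minus strand) is shown as the member with the largest difference between KO and WT with all 8 mice, and its capitals mark a CCAAT box on the reverse strand. Abca1 (chr4:53159896-53160095, minus strand) is shown as the LXR-driven member with the least even values, and its capitals mark an E-box.
Hmgcs1: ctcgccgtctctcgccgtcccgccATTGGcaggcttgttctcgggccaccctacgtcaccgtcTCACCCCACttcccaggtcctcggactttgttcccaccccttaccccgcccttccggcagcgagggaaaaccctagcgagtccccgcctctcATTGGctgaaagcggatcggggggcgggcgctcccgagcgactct
Insig1: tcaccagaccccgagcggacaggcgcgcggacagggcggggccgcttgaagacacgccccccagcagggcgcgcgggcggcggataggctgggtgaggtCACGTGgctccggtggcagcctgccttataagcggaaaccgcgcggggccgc
Npc1l1: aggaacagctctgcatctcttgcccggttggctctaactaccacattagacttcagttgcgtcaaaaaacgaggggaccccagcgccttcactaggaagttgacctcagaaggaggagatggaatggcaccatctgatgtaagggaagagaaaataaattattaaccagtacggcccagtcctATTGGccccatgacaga
Abca1: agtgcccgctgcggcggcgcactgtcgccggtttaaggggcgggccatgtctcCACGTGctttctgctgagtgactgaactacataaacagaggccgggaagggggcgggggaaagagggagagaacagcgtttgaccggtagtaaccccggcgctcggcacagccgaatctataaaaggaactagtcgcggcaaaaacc

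Motifs were searched on both strands of the RefSeq window from 250 bases before to 50 bases after each start site, over 27025 genes, with overlaps between motifs allowed. The exact sterol regulatory element stood in 1.44% of all genes' windows and, among the members, only in that of Hmgcs1 (3.57% of 28). With 1 mismatch allowed it stood in 12 of 28 members (42.9%), against 26.7% of all genes. An E-box was found in 6 members, namely Hsd17b7, Sc5d, Dhcr7, Scap, Insig1 and Abca1 (21.4%), against 8.09% of all genes. CCAAT, the box bound by NF-Y, a factor known to act beside SREBPs, stood in 24 of 28 members (85.7%) against 41.1% of all genes, and the 4 members without it were Acat2, Scap, Nr1h3 and Abca1. The usual LXR element, 2 AGGTCA half-sites 4 bases apart, had no exact match in any member, and with up to 2 mismatches it matched in Dhcr7 alone (3.57%, against 3.47% of all genes). These matches are letters in a short window and say nothing of binding. Fdps, Fdft1, Sqle, Stard4 and Soat2 have no entry in the table used.

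Each library held between 20324184 and 24726221 reads counted on genes in WT and between 23489180 and 30654105 in KO. Values per mouse are given as CPM, counts scaled to a common library size with edgeR's TMM factors, and levels that compare genes are given in FPKM, which also divides by gene length. Mex3a itself checked the labels: it stood at 12.4, 11.0, 16.0 and 13.7 CPM in WT 1 to 4 and at 0.840, 1.09, 0.260 and 0.266 CPM in KO 1 to 4. Of the 16109 genes tested with edgeR's quasi-likelihood test, Mex3a was the only 1 called at an adjusted p under 0.05 (0.00621% of genes tested, log2 fold change -4.43 ± 0.43 (SE), adjusted p = 0.0310). With the replicate number as a block, an alternative to the reported fit, 0 genes were called. Transcripts of the Y chromosome were present in replicates 1 and 2 of both genotypes and Xist in replicates 3 and 4, so the sexes were balanced.

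All 33 genes passed the filter on low counts, and none was called by edgeR at an adjusted p under 0.05 (0.00621% of all genes tested were; lowest adjusted p of a member 0.378, Idi1), so no single member is said to have changed. DESeq2, run as an alternative, called 4 of them, Idi1, Npc1l1, Mvk and Cyp51, where it called 0.577% of all genes tested. Before adjustment, 21 of the 33 had a p under 0.05 with higher values in KO, where 5.33% of all genes tested did, and 0 had one with lower values, against 3.05% of all genes. The 4 KO mice stood above the 4 WT mice without overlap for 9 members (2.17% of all genes) and below them for 1, Scap (1.87% of all genes). The fitted log2 fold change was above 0 for 32 of 33, with a median of 0.49, against a median of -0.02 over all genes tested. Because the list was picked on this contrast, nothing is read from these shares. The size of the differences was small beside that of a deleted gene: the highest was 0.86 (log2) for Npc1l1 and the lowest -0.07 (log2) for Scap.

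**Figure D1:**
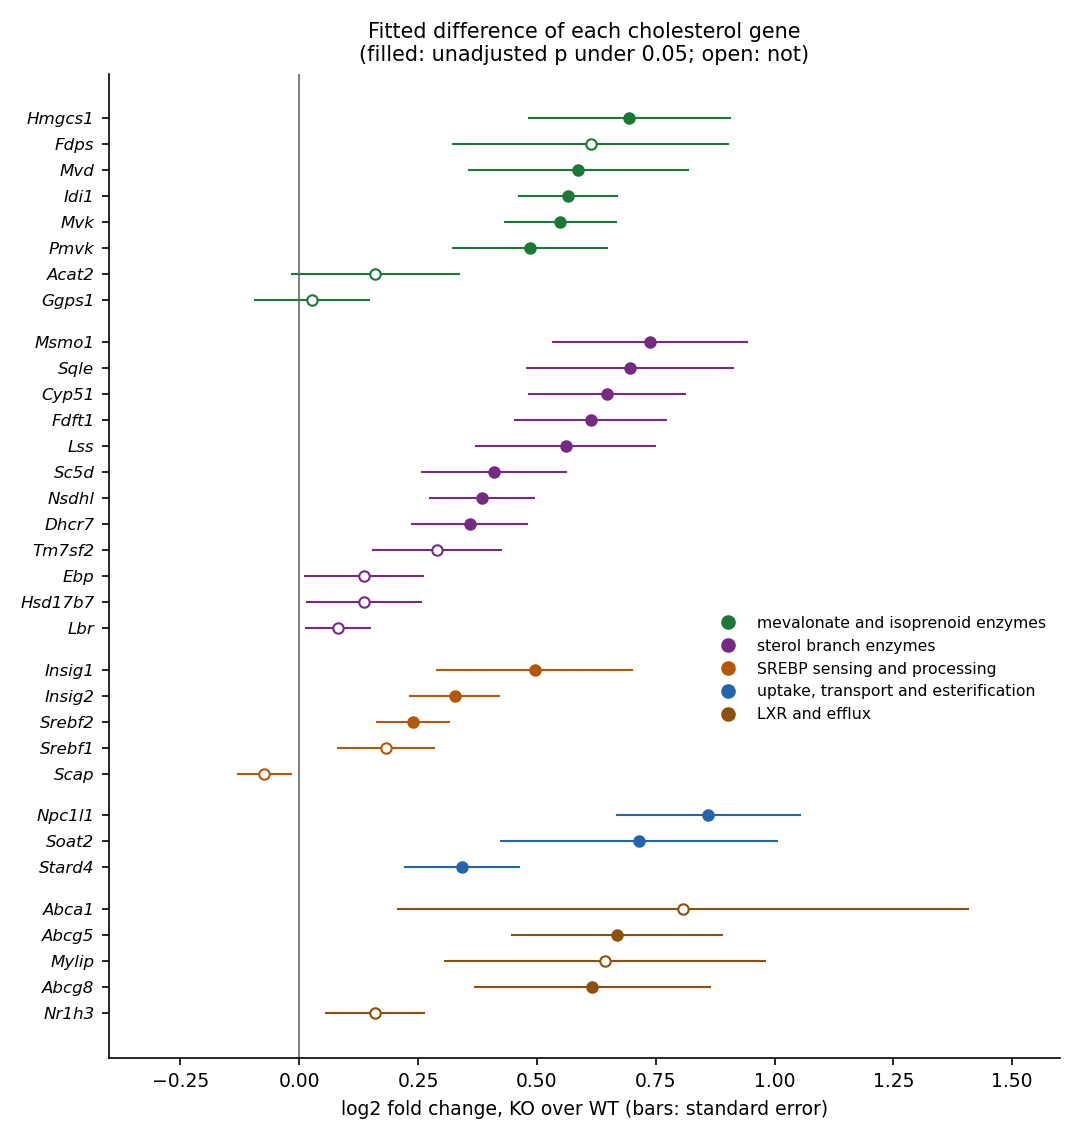
Log2 fold change of KO over WT with its standard error (x axis) for each of the 33 genes, grouped by role, 4 mice per genotype. Filled points mark an unadjusted p under 0.05 from the edgeR fit and open points a larger one. All points but Scap lie above 0, and Abca1 has the widest bar.

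Levels differed far more between the genes than between the genotypes. Averaged over the 8 mice, Npc1l1 was the most abundant transcript at 46.9 FPKM, followed by Stard4 at 39.9, Srebf2 at 34.6, Lbr at 34.3, Abcg5 at 33.6 and Hmgcs1 at 32.6. This order was not the same within the genotypes. In WT alone Stard4 stood at 35.1 FPKM, Lbr at 33.2 and Npc1l1 at 33.2, so that Npc1l1 was not the first, and Ebp at 28.8 was above Abcg5 at 25.9 and Hmgcs1 at 24.9. The differences from Srebf2 to Hmgcs1 in the order over 8 mice are smaller than the spread between mice of 1 genotype. At the other end stood Fdps at 0.770 FPKM, Abca1 at 0.822 and Mylip at 1.14. The median of the 33 was 15.0 FPKM. Fdps, which joins isoprenoid units into farnesyl diphosphate, was thus far below its neighbours in the route, with as few as 30 counts in a mouse. Of its annotated exon bases, 26.7% are shared with another annotated gene on the same strand, Gm43738. How reads that fit several genes or places were counted is not given in the sources used here, so its level is uncertain, and the part of the overlap in it was not tested. Overlap with a gene on the same strand also touched Tm7sf2 (12.1% of exon bases, Vps51), and overlap on the opposite strand was 18.3% for Fdft1, 13.2% for Scap and 12.1% for Hmgcs1, with strand use in counting not given in the sources used here. For Abcg5 and Abcg8, which lie head to head on chromosome 17, it was 3.02% and 2.19%.

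**Figure D2:**
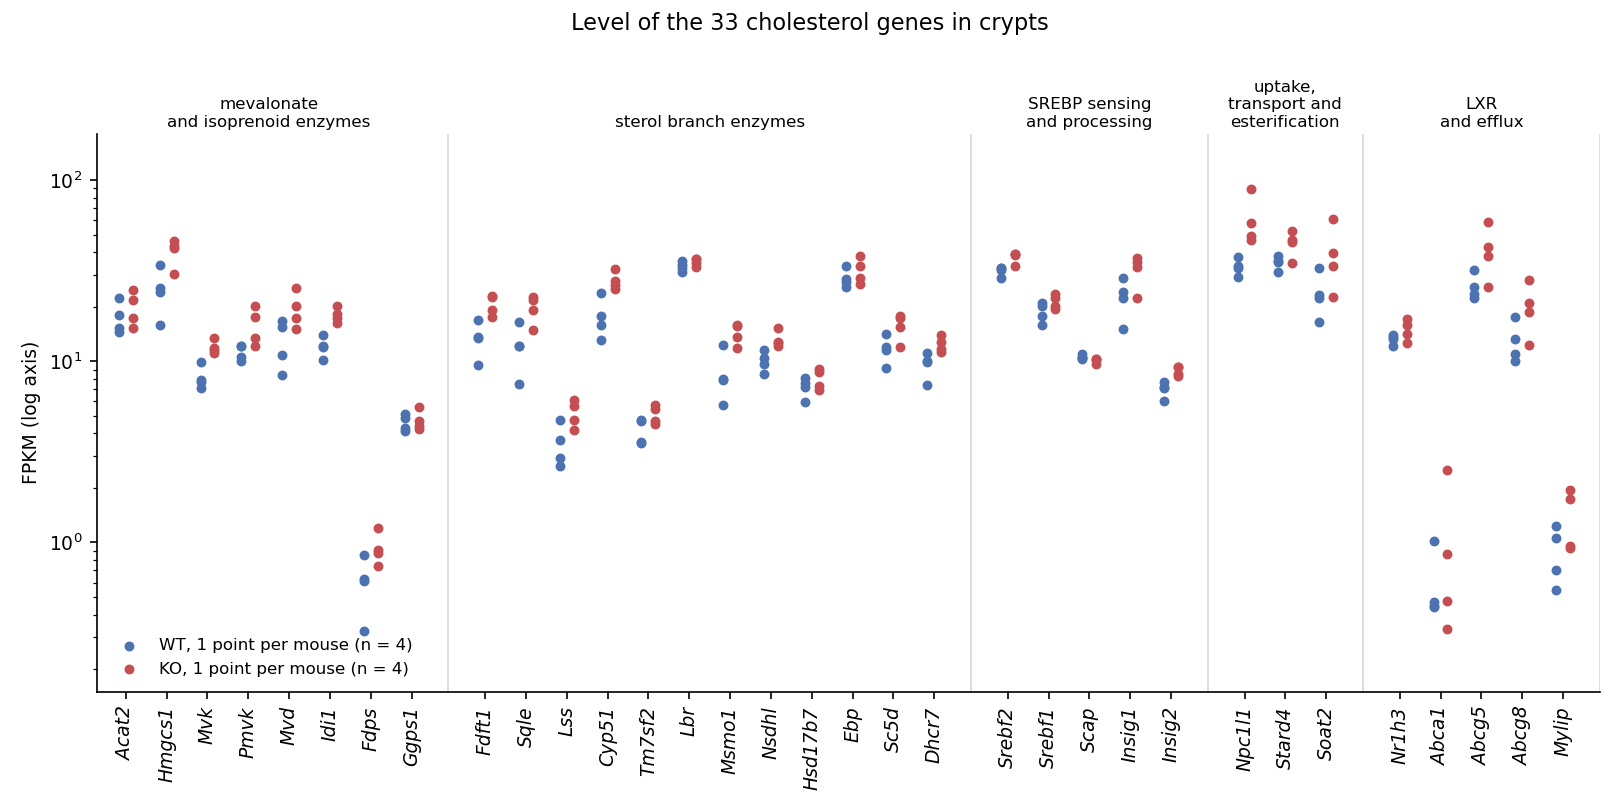
FPKM on a log axis (y) for the 33 genes (x) grouped by role, 1 point per mouse, WT in blue and KO in red. Fdps, Abca1 and Mylip lie near 1 FPKM, and Npc1l1 of the KO mice reaches the highest values.

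The first steps of synthesis lead from acetyl-CoA through mevalonate to the isoprenoids, and 5 of their 8 enzymes had an unadjusted p under 0.05, all with higher values in KO (5.33% of all genes tested). Hmgcs1 (chr13:119690379-119708260, plus strand), which condenses acetoacetyl-CoA with acetyl-CoA and was the most abundant of the 8 at 24.9 ± 7.44 FPKM (SD, n = 4) in WT and 40.4 ± 6.87 FPKM (SD, n = 4) in KO, stood at 74.1, 111, 117 and 158 CPM in WT 1 to 4 and 139.5, 198, 212 and 195 CPM in KO 1 to 4. KO 1 lay within the WT range and the other 3 KO mice above it, with a log2 fold change of 0.69 ± 0.21 (log2, SE). Mvk, mevalonate kinase, stood at 19.2, 20.6, 21.0 and 26.7 CPM in WT 1 to 4 and 30.7, 35.8, 32.0 and 29.6 CPM in KO 1 to 4. The genotypes did not overlap for Mvk, at 0.55 ± 0.12 (log2, SE), and WT 4 came nearest to the KO mice. Pmvk, the next kinase, stood at 17.3, 21.0, 18.1 and 20.9 CPM in WT 1 to 4 and 29.9, 34.4, 23.2 and 20.8 CPM in KO 1 to 4. Its KO 4 value lay within the WT range while KO 1 and KO 2 were the highest, giving 0.49 ± 0.16 (log2, SE). Mvd, which decarboxylates the product, stood at 15.8, 31.2, 20.2 and 29.0 CPM in WT 1 to 4 and 32.0, 47.1, 37.6 and 28.0 CPM in KO 1 to 4. WT 2 and WT 4 reached the level of the lower KO mice for Mvd, and its difference of 0.59 ± 0.23 (log2, SE) carried a wider error. Idi1 (chr13:8885501-8892451, plus strand), the isomerase that interconverts the isoprenoid building blocks, stood at 36.2, 42.4, 42.7 and 49.5 CPM in WT 1 to 4 and 60.4, 70.9, 64.1 and 57.4 CPM in KO 1 to 4. Its genotypes did not overlap, and the tight values within each genotype gave 0.57 ± 0.10 (log2, SE), the member with the lowest p. Fdps had 0.61 (log2) at its low level, with overlap. Acat2, which forms acetoacetyl-CoA, and Ggps1, which makes geranylgeranyl diphosphate for protein prenylation and not for sterols, had 0.16 ± 0.18 (log2, SE) and 0.03 ± 0.12 (log2, SE), each less than its error.

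The sterol branch runs from squalene to cholesterol, and 8 of its 12 enzymes had an unadjusted p under 0.05 with higher values in KO (5.33% of all genes tested). Fdft1, squalene synthase, which commits farnesyl diphosphate to sterols, stood at 41.1, 57.9, 57.0 and 72.2 CPM in WT 1 to 4 and 73.9, 95.9, 97.8 and 81.6 CPM in KO 1 to 4. The lowest KO value, KO 1, was just above the highest WT value, and the log2 fold change was 0.61 ± 0.16 (log2, SE). Sqle, squalene epoxidase, a control point of the route, stood at 41.9, 67.7, 67.4 and 92.0 CPM in WT 1 to 4 and 82.8, 121, 126 and 106 CPM in KO 1 to 4. Only KO 1 lay within the WT range, and Sqle had 0.70 ± 0.22 (log2, SE). Lss, which closes the sterol rings to lanosterol, stood at 28.9, 31.6, 39.6 and 51.8 CPM in WT 1 to 4 and 45.0, 61.5, 66.4 and 51.2 CPM in KO 1 to 4. WT 4 was level with KO 4 and above KO 1, and the difference was 0.56 ± 0.19 (log2, SE).

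Of the enzymes that trim lanosterol, Cyp51 (chr5:4081145-4104746, minus strand), the demethylase, stood at 59.0, 79.2, 70.4 and 106 CPM in WT 1 to 4 and 117, 143, 123 and 111 CPM in KO 1 to 4. The genotypes did not overlap, although WT 4 came within a few CPM of KO 4, and the log2 fold change was 0.65 ± 0.17 (log2, SE). Msmo1, the methyl sterol oxidase, stood at 35.8, 48.7, 48.9 and 76.5 CPM in WT 1 to 4 and 72.5, 96.4, 97.6 and 83.8 CPM in KO 1 to 4. It had the largest difference of the branch, 0.74 ± 0.21 (log2, SE), with KO 1 below WT 4. Nsdhl, an X-linked dehydrogenase, stood at 24.7, 27.9, 29.7 and 33.1 CPM in WT 1 to 4 and 35.9, 43.4, 36.5 and 34.8 CPM in KO 1 to 4. The genotypes were separate by a narrow gap, at 0.38 ± 0.11 (log2, SE). Sc5d, a desaturase late in the route, stood at 45.5, 58.6, 56.0 and 69.5 CPM in WT 1 to 4 and 58.2, 84.5, 87.2 and 75.0 CPM in KO 1 to 4. KO 1 lay near the middle of the WT range, and the difference was 0.41 ± 0.15 (log2, SE). Dhcr7, which reduces 7-dehydrocholesterol to cholesterol, stood at 43.7, 58.4, 58.4 and 65.3 CPM in WT 1 to 4 and 65.6, 81.0, 74.9 and 68.2 CPM in KO 1 to 4. No KO value fell within the WT range, and KO 1 and WT 4 were almost equal, with a log2 fold change of 0.36 ± 0.12 (log2, SE).

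The other 4 sterol branch genes stood apart from these 8 by smaller values. Lbr, a sterol reductase that is also a receptor of the inner nuclear membrane and was the most abundant gene of the branch at 33.2 ± 1.91 FPKM (SD, n = 4) in WT and 35.4 ± 1.77 FPKM (SD, n = 4) in KO, stood at 157, 162, 169.8 and 149 CPM in WT 1 to 4 and 175, 175, 159 and 166 CPM in KO 1 to 4. Its values overlapped and its highest and lowest mouse in a genotype differed by no more than 1.14-fold. Ebp, the sterol isomerase, had 0.14 (log2) and Hsd17b7, a sterol ketoreductase, 0.14 (log2), with overlap in both. Leaving out a mouse moved Ebp between 0.039 (without KO 2) and 0.22 (without WT 2), and Hsd17b7 between 0.055 (without WT 2) and 0.20 (without KO 2). Tm7sf2, which carries out the same reduction as Lbr, had 0.29 ± 0.14 (log2, SE), and KO exceeded WT in all 4 pairs with a shared number.

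**Figure D3:**
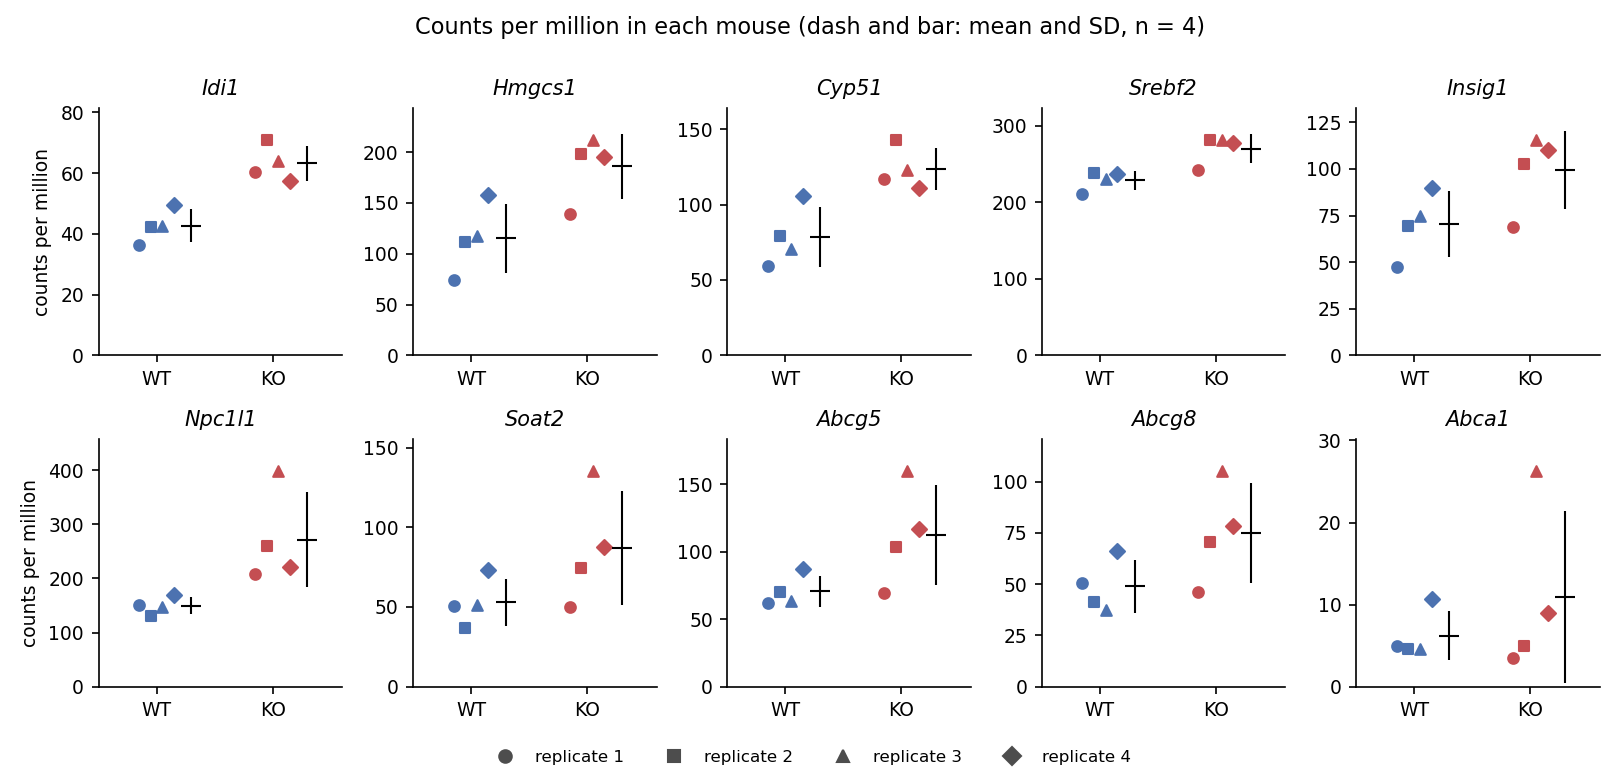
CPM (y, from 0) in each of the 8 mice for 10 of the genes, with a marker shape for each replicate number and the mean and SD (n = 4) at the right of each genotype. KO 3 stands well above the other mice for Npc1l1, Soat2, Abcg5, Abcg8 and Abca1, and not for Idi1, Cyp51 or Srebf2.

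Among the genes that sense sterols and process SREBP, Srebf2 (chr15:82147181-82205379, plus strand), the driver itself, stood at 211, 238, 230.5 and 237 CPM in WT 1 to 4 and 242, 281, 282 and 277 CPM in KO 1 to 4. The KO values did not overlap those of WT, KO 1 was well below the other 3 KO mice, and the difference was 0.24 ± 0.08 (log2, SE). Srebf1, which encodes the SREBP that favours fatty acid genes and is itself an LXR target, stood at 90.5, 119, 101 and 115 CPM in WT 1 to 4 and 114, 132, 127 and 109 CPM in KO 1 to 4. KO 1 and KO 4 fell within the WT range and the difference was 0.18 ± 0.10 (log2, SE). Scap, the escort of SREBP, stood at 78.7, 82.4, 78.5 and 77.2 CPM in WT 1 to 4 and 71.6, 76.5, 76.2 and 76.9 CPM in KO 1 to 4. It was the 1 member with every KO mouse below every WT mouse, by a narrow margin and -0.07 ± 0.06 (log2, SE). Insig1 (chr5:28071363-28078662, plus strand), which retains the SCAP complex and is induced by SREBP2 as feedback, stood at 47.5, 69.6, 75.0 and 90.0 CPM in WT 1 to 4 and 69.1, 103, 115 and 110.0 CPM in KO 1 to 4. WT 1 was the lowest and KO 3 the highest, KO 1 lay in the WT range, and the difference was 0.49 ± 0.21 (log2, SE). Insig2, the related retention protein, whose gene SREBP2 does not drive, stood at 21.3, 25.1, 24.7 and 26.9 CPM in WT 1 to 4 and 29.5, 28.9, 32.3 and 32.2 CPM in KO 1 to 4. Its 4 KO values were all above WT and close to each other, at 0.33 ± 0.10 (log2, SE).

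All 3 genes of uptake, transport and esterification had an unadjusted p under 0.05 with higher values in KO (5.33% of all genes tested). Npc1l1 (chr11:6211013-6230143, minus strand), the intestinal cholesterol importer of the brush border, stood at 151, 131, 146 and 169 CPM in WT 1 to 4 and 208, 259, 398 and 220.5 CPM in KO 1 to 4, or 33.2 ± 3.44 FPKM (SD, n = 4) in WT and 60.6 ± 19.3 FPKM (SD, n = 4) in KO. The genotypes did not overlap, and KO 3 was far above the other KO mice. The log2 fold change of 0.86 ± 0.19 (log2, SE) was the largest of the 33 with all 8 mice. Without KO 3 it was 0.62 and 5th in order, below Msmo1 at 0.68, and Abca1 came first without WT 4, KO 1 or KO 2. Stard4, which carries cholesterol between membranes in the cytosol, stood at 177, 199, 201 and 214 CPM in WT 1 to 4 and 194, 260.5, 292 and 256 CPM in KO 1 to 4. KO 1 was in the WT range and the other 3 were above it, at 0.34 ± 0.12 (log2, SE). Soat2, the esterifying enzyme of absorptive cells, stood at 50.3, 36.9, 51.4 and 73.0 CPM in WT 1 to 4 and 50.3, 74.3, 135 and 87.8 CPM in KO 1 to 4. KO 1 was level with WT 1 and KO 3 was the highest by a wide gap. Its difference was 0.72 ± 0.29 (log2, SE) with all mice and 0.42 without KO 3.

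The LXR and efflux genes were the least even between mice. Abcg5 (chr17:84658234-84683011, minus strand), a subunit of the sterol exporter of the brush border and the most abundant of these genes at 25.9 ± 4.21 FPKM (SD, n = 4) in WT and 41.4 ± 13.6 FPKM (SD, n = 4) in KO, stood at 61.8, 70.1, 63.8 and 87.1 CPM in WT 1 to 4 and 69.8, 104, 159.8 and 117 CPM in KO 1 to 4. KO 1 lay among the WT mice and KO 3 stood highest, with a log2 fold change of 0.67 ± 0.22 (log2, SE), or 0.45 without KO 3. Abcg8, its partner in the exporter, stood at 50.5, 41.3, 37.5 and 66.1 CPM in WT 1 to 4 and 45.9, 70.3, 105 and 78.5 CPM in KO 1 to 4. The order of the KO mice was the same as for Abcg5, KO 1 was within the WT range, and the difference was 0.62 ± 0.25 (log2, SE), or 0.41 without KO 3. Abca1 (chr4:53030787-53159895, minus strand), which loads cholesterol onto lipoprotein particles, stood at 4.94, 4.63, 4.59 and 10.7 CPM in WT 1 to 4 and 3.44, 4.93, 26.3 and 9.01 CPM in KO 1 to 4. The KO 3 value exceeded all others by over 2-fold, WT 4 was next, and the other KO mice lay in or below the WT range. Its log2 fold change was 0.81 ± 0.60 (log2, SE) with all mice, and 0.43 ± 0.49 (log2, SE) with the replicate number as a block. Without KO 3 it was -0.10, so that its direction rests on that 1 library. Mylip, a ubiquitin ligase induced by LXR, had 0.64 ± 0.34 (log2, SE) at a level near 1 FPKM, and Nr1h3, which encodes LXR alpha, had 0.16 ± 0.10 (log2, SE); both overlapped.

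Set side by side, the SREBP2-driven and the LXR-driven genes were higher in KO by almost the same amount, while the mice were ordered differently. The mean log2 CPM of the 22 SREBP2-driven genes was 5.27, 5.61, 5.55 and 5.81 in WT 1 to 4 and 5.88, 6.20, 6.16 and 5.96 in KO 1 to 4. The genotypes did not overlap, with WT at 5.56 ± 0.22 (SD, n = 4), KO at 6.05 ± 0.16 (SD, n = 4) and a difference of 0.49. The mean of the 5 LXR-driven genes was 4.45, 4.31, 4.27 and 4.96 in WT 1 to 4 and 4.40, 4.77, 5.68 and 5.13 in KO 1 to 4. Here the genotypes overlapped, since KO 1 was below WT 1 and WT 4 above KO 2, with WT at 4.50 ± 0.32 (SD, n = 4), KO at 4.99 ± 0.55 (SD, n = 4) and a difference of 0.50. The KO minus WT difference of the SREBP2-driven genes minus that of the LXR-driven genes was thus -0.01, and the gap between the groups varied from mouse to mouse of a genotype with an SD of 0.39. This comparison was not tested, since the members were chosen on the same contrast. Of the 22 SREBP2-driven genes, 17 had an unadjusted p under 0.05 with higher values in KO, where 5.33% of all genes tested did, 8 did not overlap (2.17% of all genes), and 17 were higher in KO in all 4 pairs of mice with the same number (10.3% of all genes). Of the 5 LXR-driven genes, 2 had such a p (Abcg5 and Abcg8), 0 were without overlap, and 1 was higher in KO in all 4 pairs.

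The mice that set these values differed between the groups. WT 1 was the lowest of the 8 mice for 18 of the 22 SREBP2-driven genes, and the highest was KO 3 for 11 of them and KO 2 for 10. For the LXR-driven genes KO 3 was the highest in 4 of 5. Without KO 3, the difference of the SREBP2-driven group was 0.45 and that of the LXR-driven group 0.27, and 13 of 22 and 1 of 5 genes had an unadjusted p under 0.05 with higher values in KO, where the share of all genes tested fell as well, to 2.99%. Without WT 1 the differences were 0.39 and 0.48. Within the mice with Y transcripts (2 per genotype) the SREBP2-driven group differed by 0.60 and the LXR-driven group by 0.20, and within those with Xist by 0.38 and 0.79. In both sexes the KO mice were above the WT mice for the SREBP2-driven genes, and for the LXR-driven genes only in the mice with Xist; these are 2 against 2 mice and were not tested.

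Markers of the absorptive enterocyte differed between the same mice. The summed level of 7 enterocyte markers (Alpi, Apoa1, Apoa4, Fabp1, Sis, Lct and Anpep) was 1585, 1109, 1749 and 3297 CPM in WT 1 to 4 and 2006, 2386, 8185 and 5063 CPM in KO 1 to 4. It was highest in KO 3, and all 7 had fitted log2 fold changes above 0, with 2 of 7 at an unadjusted p under 0.05, where 7425 of the 16109 genes tested were above 0 and 5.33% had such a p with higher values. WT 4, KO 4 and KO 3, in rising order of these markers, were also the top 3 mice of the LXR-driven group in the same order. KO 2, with a marker sum below that of WT 4, had the highest SREBP2-driven mean. The sum of 3 ileum markers, Fabp6, Slc10a2 and Slc51b, ranged from 37.6 to 311 CPM in WT and from 338 to 708 CPM in KO, and that of 5 stem cell markers, including Lgr5 and Olfm4, from 4006 to 4801 CPM in WT and from 2955 to 3679 CPM in KO. Both sums were without overlap between the genotypes. Each of the 3 ileum markers overlapped on its own, and so did Lgr5, Ascl2 and Tnfrsf19 of the stem cell markers. All 3 ileum markers had an unadjusted p under 0.05 with higher values in KO, at 1.34 to 1.78 (log2). Of the 5 stem cell markers, 3 had such a p with lower values in KO. Over all genes tested these shares were 5.33% and 3.05%. Olfm4, at 2620 to 4478 CPM, made up most of the stem cell sum, and it and Smoc2 were lower in every KO mouse than in any WT mouse (1.87% of all genes). WT 1, the lowest mouse for 18 of the 22 SREBP2-driven genes, had the ileum value of 37.6 CPM, where the other WT mice had 167 to 311 CPM. The 5 markers of the proximal small intestine, Gata4, Cybrd1, Slc40a1, Adh6a and Gsta1, summed to 268 to 376 CPM in WT and 236 to 357 CPM in KO, with overlap. Goblet cell markers summed to 4317 to 5759 CPM in WT and to 5033, 7098, 7135 and 6818 CPM in KO 1 to 4, so that KO 1 was within the WT range and the other 3 KO mice were above it. Of these 5 markers (Muc2, Tff3, Spink4, Fcgbp and Clca1), Fcgbp made up most of the sum, at 2667 to 4784 CPM and 0.41 (log2), and Spink4 went the other way, at -0.38 (log2). The 6 markers of T and B cells summed to 14.8 to 42.4 CPM in WT and 28.7 to 89.8 CPM in KO. Paneth cell markers summed to 14443 to 43414 CPM in WT and 7263 to 23254 CPM in KO, and proliferation markers to 1839 to 2252 CPM in WT and 1677 to 2175 CPM in KO. The T and B cell, Paneth and proliferation sums overlapped between the genotypes. All 6 T and B cell markers had fitted log2 fold changes above 0, with a median of 1.07. Of the 6, 3 had an unadjusted p under 0.05 with higher values in KO (5.33% of all genes tested). All 5 Paneth markers were below 0, and 0 of them and 0 of the 8 proliferation markers had an unadjusted p under 0.05. The Paneth value of 43414 CPM was that of WT 1, with 14443 to 24732 CPM in the other WT mice. The sums of 4 colon markers, at 17.1 to 25.3 CPM with 1 of the 4 at 0 in every mouse, and of stroma and endothelium markers, at 10.2 to 20.7 CPM over both genotypes, were low in every mouse. The part of cell makeup and of intestinal position in the cholesterol gene differences was not tested.

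**Figure D4:**
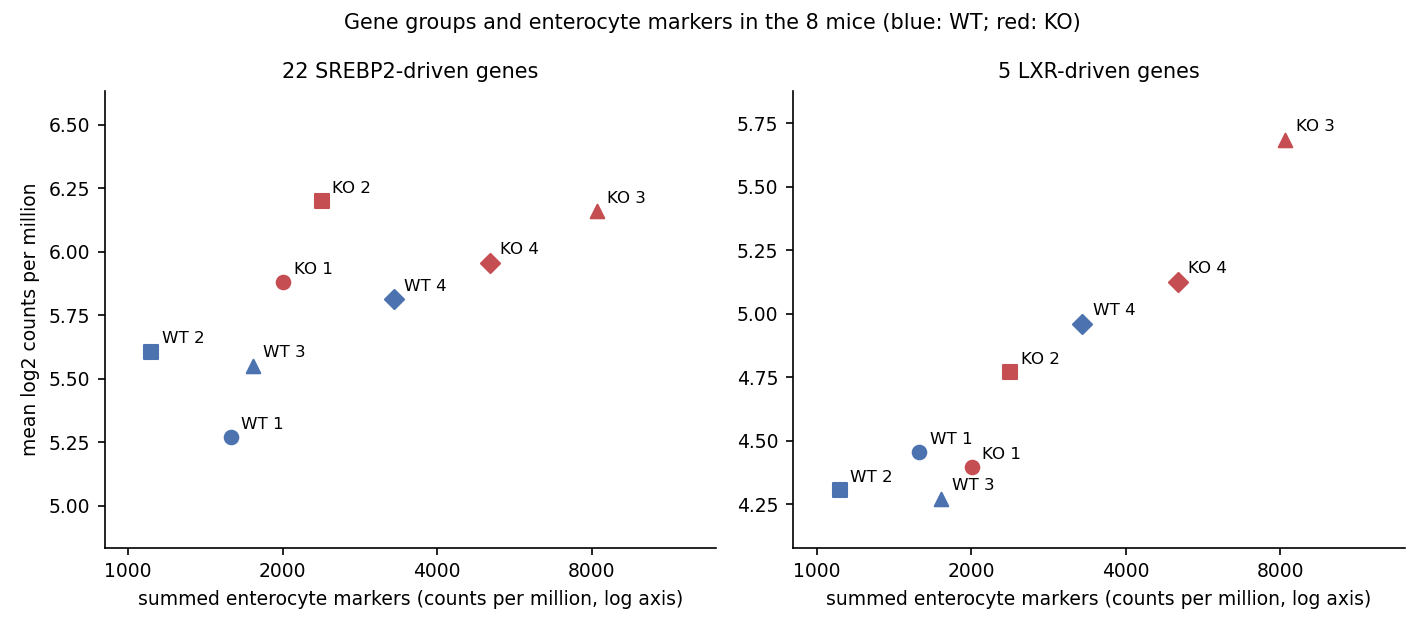
Mean log2 CPM of the 22 SREBP2-driven genes (left) and the 5 LXR-driven genes (right) on the y axis, against the summed CPM of 7 enterocyte markers (x, log axis), 1 point per mouse with its genotype and replicate number. The 4 KO mice lie above the 4 WT mice on the left, while on the right WT 4 lies among the KO mice and KO 3 is highest.

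Genes of neighbouring routes, 42 in 4 lists, were measured with the same fit, and edgeR called 0 of them at an adjusted p under 0.05, where 5 with higher and 1 with lower values in KO passed before adjustment (5.33% and 3.05% of all genes tested). DESeq2 called 0 of the 42 and limma 0 of the 39 it tested. Of 9 genes that cleave SREBP or degrade sterol-regulated proteins, 0 had an unadjusted p under 0.05, with a median log2 fold change of -0.02. The 2 with the lowest p were Erlin1, at 0.13 ± 0.13 (log2, SE), and the SREBP protease gene Mbtps2, at -0.10 ± 0.10 (log2, SE); the other protease gene, Mbtps1, had -0.05 (log2). Of 13 genes listed under fatty acid synthesis linked to SREBP1, 3 had an unadjusted p under 0.05 with higher values in KO, and the median was 0.12. Aacs, which activates acetoacetate for lipid synthesis and not for fatty acids alone, stood at 49.8, 68.0, 60.9 and 72.7 CPM in WT 1 to 4 and 84.7, 118, 92.8 and 74.0 CPM in KO 1 to 4. Every KO mouse was above every WT mouse for Aacs, by 0.56 ± 0.16 (log2, SE), and the same held for Acaca, acetyl-CoA carboxylase, by 0.21 ± 0.07 (log2, SE). Scd1, a fatty acid desaturase, was the other with such a p, at 0.79 ± 0.33 (log2, SE), with overlap and a low level of 1.07 to 4.69 CPM. Of 8 genes listed as LXR partners or other LXR targets, 1 had such a p, Abca7, at 0.37 ± 0.10 (log2, SE) without overlap. The median of the 8 was 0.11, and Rxrb, a partner receptor, had -0.14 ± 0.09 (log2, SE). Which factor drives a listed gene, Abca7 and Aacs included, was not tested. Of 12 genes of sterol trafficking, uptake and storage, 1 was higher in KO and 1 lower at an unadjusted p under 0.05, and the median was 0.03. Soat1, the esterifying enzyme found in most tissues, stood at 90.5, 73.3, 65.3 and 79.0 CPM in WT 1 to 4 and 71.6, 57.1, 46.6 and 53.8 CPM in KO 1 to 4. The genotypes overlapped, and its fitted log2 fold change was -0.43 ± 0.14 (log2, SE). Gramd1c, which moves sterol from the plasma membrane inward, had 0.48 ± 0.18 (log2, SE), with overlap, and Stard3, a sterol carrier of late endosomes, had 0.11 ± 0.06 (log2, SE), with every KO value above WT by a narrow gap.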

How the data were processed

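The members, gene lists and alternatives were chosen with earlier results of these data known. For every gene and mouse the authors deposited the unnormalized read count and an FPKM value, which scales that count by the length of the gene and by the library total. The submitters' processing notes name CASAVA, HISAT2 2.0.5 and featureCounts 1.5.0-p3; strandedness is not given in the sources used here. 5 deposited columns hold the authors' own comparison (fold changes and p-values) and were not used. The gene IDs of all 33 members were found in GENCODE M21 (GRCm38), 32 with the same start and end.

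Genotypes were compared on the counts with edgeR 4.0.16 (R 4.3.3), using filterByExpr (minimum count 10), TMM factors and the quasi-likelihood test with genotype as the only term. Benjamini-Hochberg adjustment ran over the 16109 genes tested, with a threshold of 0.05. Each p-value sets the genotype term against the variation between mice of a genotype, which is moderated with that of the other genes tested. Group means are means of log2 CPM with a prior count of 2. Alternatives were DESeq2 1.42.0, limma 3.58.1 on log2(FPKM + 1) and log2(FPKM + 0.1) for genes over 1 FPKM in at least 4 mice, RLE and upper-quartile factors, other filters, Y or Xist transcripts as a covariate, the replicate number as a block, and each mouse left out. The tests were checked on simulated data. A gene was left out of each of 2 fixed lists and is not reported here. Replicate numbers are shared between genotypes, and the departures from the genotype mean of mice with 1 number correlated at 0.129, 0.501, 0.141 and 0.294 over all genes (0.0873, 0.481, 0.0921 and 0.252 over autosomal genes). All 4 passed the criterion for pairing, a correlation over 0.1, over all genes, and 2 of 4 over autosomal genes. The labels do not say whether a shared number marks a litter. The reported fit has no block, so its errors and p-values leave any pairing out, and the blocked fit is given as an alternative. With the block the standard error of Insig1 was 0.078 instead of 0.21, while that of Mvk was 0.12 in both fits. No 2 libraries of a genotype were alike (chi-square divided by its degrees of freedom 23.8 to 88.5). Members were given in full where their unadjusted p was under 0.05 or the genotypes did not overlap, with the most abundant gene of each role and Srebf2, Srebf1, Insig1, Npc1l1 and Abca1. Of each list of neighbouring routes the 2 genes with the lowest p were named; Mbtps1, Scd1 and Stard3 were added after their values were seen. RefSeq promoters were searched for 28 of 33 members with Python 3.11.15; the search with 1 mismatch in the sterol regulatory element was added after seeing the data. Figures were drawn with matplotlib 3.10.9.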

Additional observations from a re-analysis of the deposited data

Results flagged for a closer look

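In 3 of 70 groups of 4 mice, 1 mouse stood apart by Dixon's criterion, which compares its gap to the nearest mouse with the whole range; chance gives about 3.5. KO 1 was the lowest KO mouse for Srebf2, with a gap of 0.892 of the KO range, and for Scap, with 0.883. WT 4 was the highest WT mouse for Abca1, with a gap of 0.942 of the WT range.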

How the results depend on the processing

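Genes called over the whole table numbered 1 (Mex3a) in the reported fit, 93 with DESeq2, 2 with no filter, 0 with at least 10 counts in every mouse, 2 with limma at either pseudocount, 4 with Y or Xist transcripts as a covariate, and 0 to 4 when a mouse was left out. With the replicate number as a block for the pairing, 0 genes were called, and 23 of the 33 cholesterol genes had an unadjusted p under 0.05 instead of 21, with Fdps and Tm7sf2 gained; over all genes the number with higher values rose from 859 to 1150 of 16109. The block changed no other call. DESeq2 called 4 cholesterol genes, Idi1 (adjusted p = 0.00195), Npc1l1 (adjusted p = 0.00498), Mvk (adjusted p = 0.0116) and Cyp51 (adjusted p = 0.0376), where the other 16 alternatives called 0. Higher values in KO at an unadjusted p under 0.05 were found for 15 (without KO 3) to 23 members over the 17 alternatives, under which the share of all genes tested ranged from 2.99% (without KO 3) to 7.94% (without KO 1). The SREBP2-driven difference ranged from 0.39 to 0.57, the LXR-driven one from 0.27 (without KO 3) to 0.69 (without KO 1), and their difference from -0.15 (without KO 1) to 0.19 (without KO 3). LXR-driven genes at an unadjusted p under 0.05 numbered 1 (among others without KO 3) to 3 (without WT 4 or KO 2), where 2.99%, 6.41% and 5.52% of all genes tested passed. Of 557 single-gene values, 549 kept their direction and side of the threshold. Ggps1 turned to -0.020 without WT 3, -0.0035 without WT 4 and -0.059 without KO 2, and Abca1 to -0.10 without KO 3 (ranges with a mouse left out -0.059 to 0.084 and -0.10 to 1.21); the cause was not tested. With a mouse left out, Acat2 ranged from 0.040 to 0.30, Lbr from 0.050 to 0.12, Srebf1 from 0.11 to 0.24, Nr1h3 from 0.088 to 0.23 and Fdps from 0.41 to 0.83. limma could not be run for Fdps and Abca1, which its filter on FPKM removed. Fdps, Abca1 and Mylip had as few as 30, 82 and 38 counts in a mouse, where counting error is largest.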
